A study of Homo sapiens with 44 samples.

Results

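Chromatin accessibility in colon fibroblasts given interferon gamma (IFNγ) was compared directly with that in the same cells given tumour necrosis factor (TNF). The comparison used the 4 IFNγ libraries and the 4 TNF libraries of a series of 44 ATAC-seq libraries, and the 4 libraries of unstimulated cells served to say which cytokine had moved a peak, and which way. ATAC-seq is an assay in which a transposase cuts open DNA and adds sequencing adaptors, so read coverage rises where chromatin is accessible. The cells were Ccd18-Co, an established fibroblast line from human colon. They were seeded in full growth medium and, once attached, starved in serum-free medium. After this starvation they were given IFNγ or TNF at 10 ng/ml in serum-free medium, or no cytokine. All 3 groups thus came from 1 cell line, so spread between people was not measured. Whether replicates came from separate cultures is not stated in the labels, and p-values then measure only the spread between these libraries, which may be technical.

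IFNγ binds the receptor pair IFNGR1 and IFNGR2 and signals through JAK1 and JAK2 to factors that bind gamma-activated sites (GAS). The signal induces IRF1, a factor that binds interferon-stimulated response elements (ISRE), and the cytokine is known to induce antigen presentation, guanylate-binding proteins and antiviral genes. TNF acts through TNFRSF1A and TNFRSF1B to release NF-κB and to activate AP-1, and in fibroblasts it is known for chemokines, cytokines and matrix proteases. The question here was which regions and genes set the chromatin response to one cytokine apart from the response to the other.

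Values are read coverage summed over peaks of 500 bases, given per megabase (Mb) of the library's coverage in all peaks after a correction for composition, so a coverage of 10 means that 10 covered bases in each Mb of coverage lay in that peak. Library totals averaged 489 ± 113 Mb with IFNγ and 468 ± 173 Mb with TNF (SD, n = 4 each), against 414 ± 81.6 Mb in unstimulated cells, within a range of 149 to 823 Mb over the 44 libraries. The deepest of the 8 libraries were IFNγ replicate 2 (658 Mb) and TNF replicate 4 (727 Mb). Between replicates of a group, coverage per peak in reads varied by 1.60 to 1.74 times what independent reads would give, where both reads of a fragment falling in a peak can by itself give up to 2, and between IFNγ and TNF libraries the value was 3.64 to 4.95. Every pair of replicates gave a value in that narrow range, so no pair stood out as a repeat deposit of 1 library.

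The fibroblast label was checked against markers. All 12 fibroblast markers had a peak within 1 kb of a start site, at 88.6 to 99.7 percentiles of mean coverage among all tested peaks. No tested peak lay there for the epithelial markers CDH1, KRT20, VIL1 and CDX2 or for the leukocyte markers PTPRC, CD3E and SPI1. EPCAM, KRT8, KRT18 and ELF3 had peaks of low coverage (1.10 to 2.55 with IFNγ). The peaks of the immune markers CD14 and CD68 read 4.20 and 35.1 with IFNγ. Summed coverage over the 4 epithelial markers with peaks was 5.96 to 7.57 with IFNγ and 4.46 to 6.44 with TNF. None of the 13 peaks of the epithelial, endothelial and immune lists differed between the cytokines. All 5 muscle markers also had a peak, at 58.1 to 98.3 percentiles, and 1 of them differed. Their median percentile was 94.8, against 94.5 for the fibroblast markers. The check thus did not tell fibroblasts from muscle-like cells.

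The sequences printed next show motif letters in some of the peaks that set the cytokines apart, chosen because they hold such letters. Each is 120 bases of the hg38 forward strand, 5′ to 3′, around a match to the motif it is shown for, and capitals mark matches to the motifs searched, on both strands. The letters searched were GAAANNGAA for ISRE, TTCNNNGAA for GAS, GGGANNTTC for the NF-κB site and TGANTCA for AP-1, and matches of different motifs may overlap. Of all 407174 tested peaks, 18.7% held the ISRE letters, 17.2% GAS, 7.30% NF-κB and 25.7% AP-1. The first 4 sequences come from peaks among the 8 most strongly higher with IFNγ, and hold the ISRE letters, GBP5 beside a GAS match. Of those 8 peaks, 5 held ISRE letters, and IRF1, FAR2 and LMAN2L did not. They lie at chr19:39678146-39678265 (named LGALS17A), chr19:39277658-39277777 (IFNL2), chr1:89287025-89287144 (GBP5) and chr18:48470698-48470817 (ZBTB7C), all intergenic in GENCODE v44.
LGALS17A: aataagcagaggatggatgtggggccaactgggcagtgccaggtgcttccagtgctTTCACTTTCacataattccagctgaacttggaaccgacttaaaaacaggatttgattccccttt
IFNL2: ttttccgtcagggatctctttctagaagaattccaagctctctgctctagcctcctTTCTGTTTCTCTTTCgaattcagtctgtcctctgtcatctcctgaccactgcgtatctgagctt
GBP5: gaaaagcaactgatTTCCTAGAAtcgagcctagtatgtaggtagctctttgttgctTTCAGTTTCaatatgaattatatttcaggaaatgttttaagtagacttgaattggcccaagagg
ZBTB7C: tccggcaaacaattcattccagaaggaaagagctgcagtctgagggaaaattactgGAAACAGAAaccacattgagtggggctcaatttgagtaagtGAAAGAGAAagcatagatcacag
The next 4 come from peaks among the 8 most strongly higher with TNF, with AP-1 letters in the first pair and NF-κB letters in the other. Of those 8 peaks, 3 held AP-1 letters, 4 NF-κB letters and CXCL8 neither. They lie at chr20:44594909-44595028 (an intron of ADA and PKIG), chr1:209607556-209607675 (named MIR4260, an intron of CAMK1G), chr17:34235534-34235653 (named CCL2, intergenic) and chr12:89960284-89960403 (named LINC02399, an intron by GENCODE).
ADA: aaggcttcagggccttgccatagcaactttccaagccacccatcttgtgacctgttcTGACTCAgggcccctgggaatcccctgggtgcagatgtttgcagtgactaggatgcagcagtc
MIR4260: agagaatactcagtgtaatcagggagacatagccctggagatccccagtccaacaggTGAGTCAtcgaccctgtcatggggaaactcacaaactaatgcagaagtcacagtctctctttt
CCL2: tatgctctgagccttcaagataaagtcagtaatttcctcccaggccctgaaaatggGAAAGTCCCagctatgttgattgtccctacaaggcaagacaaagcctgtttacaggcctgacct
LINC02399: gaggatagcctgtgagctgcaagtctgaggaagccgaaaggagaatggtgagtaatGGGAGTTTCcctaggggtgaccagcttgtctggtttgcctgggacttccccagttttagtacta
The last pair comes from peaks that both cytokines raised. The CXCL10 promoter sequence (chr4:76023654-76023773, upstream of the gene and inside an intron of ART3) holds NF-κB and ISRE letters within the same 120 bases, and the IRF1 intron (chr5:132475298-132475417) holds ISRE letters.
CXCL10: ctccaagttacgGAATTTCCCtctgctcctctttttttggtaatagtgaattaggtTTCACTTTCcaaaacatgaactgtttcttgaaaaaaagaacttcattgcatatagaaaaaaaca
IRF1: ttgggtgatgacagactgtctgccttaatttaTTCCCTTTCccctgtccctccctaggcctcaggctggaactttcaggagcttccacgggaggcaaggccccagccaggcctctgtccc

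Of 407174 peaks tested, 25856 (6.35%) differed between the cytokines, 13196 (3.24%) higher with IFNγ and 12660 (3.11%) higher with TNF (limma, adjusted p below 0.05). The division was thus nearly even by number. Peaks at IRF1, GBP5 and CD74 were among the 8 largest changes with IFNγ, and peaks at CXCL8, ADA and CCL2 among the 8 largest with TNF. Among peaks that differed, the median log2 difference (IFNγ minus TNF, as in all later differences) was 1.16 on the IFNγ side and -1.14 on the TNF side, against 0.04 over all tested peaks. A size of at least 1 was reached by 8498 and 8019 peaks, of at least 2 by 854 and 842, and of at least 3 by 64 and 72. The 4 values of one group lay wholly above the 4 of the other in 87.7% of the peaks that differed and in 11.0% of all tested peaks.

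The sides differed in how they stood against unstimulated cells. In their own comparisons with unstimulated cells, which share those 4 libraries, IFNγ raised 6025 peaks (1.48%) and lowered 1119 (0.275%), while TNF raised 10883 (2.67%) and lowered 6891 (1.69%). The count lowered by IFNγ was 680 without unstimulated replicate 3, 1705 with only the 12 libraries fitted and 1734 with array quality weights. Of the 13196 peaks higher with IFNγ, 3917 (29.7%) had been raised by IFNγ and 4011 (30.4%) lowered by TNF, and 5385 passed in neither comparison. Of the 12660 peaks higher with TNF, 7038 (55.6%) had been raised by TNF and 453 (3.58%) lowered by IFNγ, and 5228 passed in neither comparison. Among peaks higher with IFNγ, those that IFNγ raised and those that TNF lowered were thus nearly equal in number, while those higher with TNF were mostly raised by TNF. Among the largest differences, peaks raised by the cytokine itself made up most of both sides, as the plot of sizes shows. The 3 comparisons share libraries pairwise, so a chance high value in 1 group enters 2 of them.

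**Figure D1:**
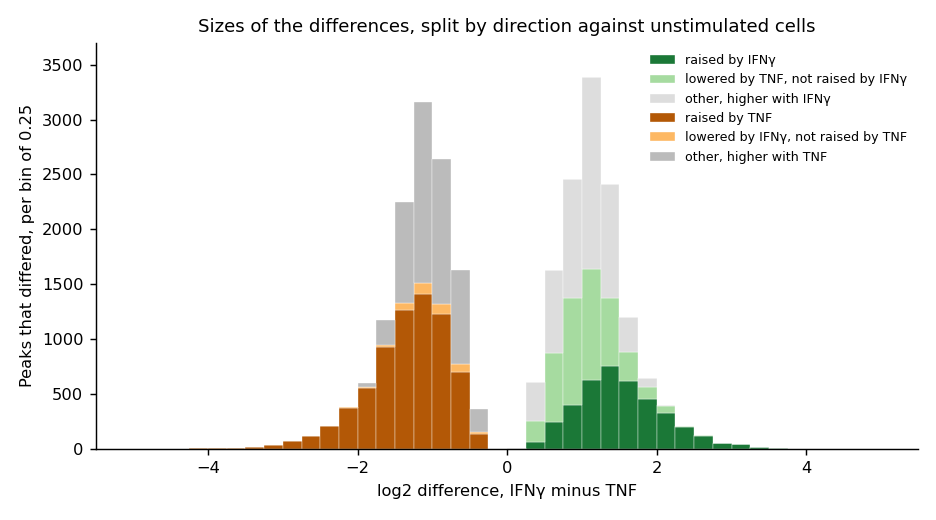
Number of peaks that differed between IFNγ and TNF (vertical axis) by log2 difference, IFNγ minus TNF, in bins of 0.25 (horizontal axis), with colours for the direction against unstimulated cells. Peaks that TNF lowered and IFNγ did not raise (light green) lie mostly at the smaller differences on the IFNγ side, where 4011 of 13196 peaks were lowered by TNF in all. Other peaks (light grey) are more numerous there, at 1746 against 1016 in the bin starting at 1.0. Lowering by IFNγ (light orange) makes up little of the TNF side, at 453 of 12660 peaks.

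The peak that differed most towards IFNγ was at the IRF1 gene (chr5:132480908-132481408), in an intron of IRF1, IRF1-AS1 and an overlapping gene by GENCODE, though the deposited table classes it as distal. Its coverage was 41.8, 41.2, 45.1 and 41.5 in IFNγ replicates 1 to 4, and 2.35, 1.15, 3.44 and 1.05 in TNF replicates 1 to 4. Unstimulated cells had 1.02, 1.97, 2.36 and 2.54, so TNF libraries lay at the unstimulated level and every IFNγ library far above. The log2 difference was 4.21 ± 0.29 (SE), a 21.2-fold ratio of means (limma, adjusted p = 1.83e-31). None of the ISRE, GAS, NF-κB and AP-1 letters were in this window, which says only that those letters are not in these 500 bases.

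The intergenic peak named for GBP5, a guanylate-binding GTPase of cell-autonomous immunity, read 10.0, 11.0, 9.53 and 11.2 in the IFNγ replicates. In the TNF replicates it read 0.493, 0, 0.748 and 0.278. The groups lay far apart, with a 27.5-fold ratio of means and a log2 difference of 3.71 ± 0.39 (limma, adjusted p = 2.35e-15). The promoter peak of CD74, the invariant chain that guides MHC class II, covered the 5′ untranslated part of the gene (chr5:150412640-150413140). It read 20.1, 12.1, 13.8 and 19.9 with IFNγ and 2.74, 0.228, 0.583 and 0.956 with TNF, a log2 difference of 3.58 ± 0.38 (limma, adjusted p = 1.05e-15).

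The other 5 of the 8 peaks highest with IFNγ, counting 1 peak per named gene, had log2 differences of 3.56 to 3.93. They were named LGALS17A, IFNL2, FAR2, ZBTB7C and LMAN2L. The peak named LGALS17A averaged 32.1 ± 3.66 with IFNγ, 1.65 ± 0.334 with TNF and 1.21 ± 0.413 in unstimulated cells (SD, n = 4 each). The peak named IFNL2, a type III interferon gene, lies 9320 bases from the nearest start site of any gene. It averaged 13.4 ± 2.71 with IFNγ and 0.622 ± 0.445 with TNF. The 8 were chosen among peaks where the IFNγ libraries lay above every TNF library, so that separation is part of the choice. In each of them, IFNγ passed the test against unstimulated cells, and TNF did not. In FAR2, TNF replicate 4 stood above the other TNF libraries (4.17 against 0.389 to 1.46).

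On the TNF side the largest difference was in a peak named LINC01589 (chr22:45600735-45601235), in an untranslated part of FBLN1, which encodes the matrix protein fibulin 1. It read 15.5, 15.8, 16.1 and 15.4 in TNF replicates 1 to 4 and 0.228, 1.04, 0 and 0.358 in IFNγ replicates 1 to 4, a log2 difference of -4.28 ± 0.36 (limma, adjusted p = 7.56e-23). Unstimulated libraries read 0 to 0.756, so this region was close to closed without TNF.

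CXCL8, which encodes the neutrophil chemoattractant IL-8, gave nearly the same size of difference at a peak over its own untranslated sequence (chr4:73742531-73743031). The TNF replicates read 20.5, 17.7, 17.1 and 13.8, and the IFNγ replicates 0.339, 0.5999, 0 and 0.972. The log2 difference was -4.28 ± 0.39 (limma, adjusted p = 5.79e-20), with no unstimulated library above 0.255. The peak in the introns of ADA, which encodes adenosine deaminase, and PKIG read 29.9, 32.1, 24.8 and 26.7 with TNF and 0.860, 0.738, 1.40 and 1.18 with IFNγ. Its log2 difference was -4.24 ± 0.29 (limma, adjusted p = 6.77e-31).

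The intergenic peak named for CCL2, a monocyte chemoattractant, lies 19698 bases from the nearest start site (chr17:34235326-34235826). It read 28.9, 35.2, 27.9 and 27.1 with TNF and 2.76, 1.22, 0.721 and 1.36 with IFNγ, a 19.7-fold ratio of means and a log2 difference of -4.00 ± 0.29 (limma, adjusted p = 1.70e-29). The other 4 peaks on this side were named ETV4, LINC02399, MIR4260 and CASC20, with log2 differences of -4.16 to -3.76. CASC20 had no IFNγ library above 3 reads, and TNF coverage (9.63 ± 0.884) was at least 19.9-fold higher than that floor set per library. These 8 too were chosen for having the TNF libraries above every IFNγ library. In each of them, TNF but not IFNγ passed the test against unstimulated cells.

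**Figure D2:**
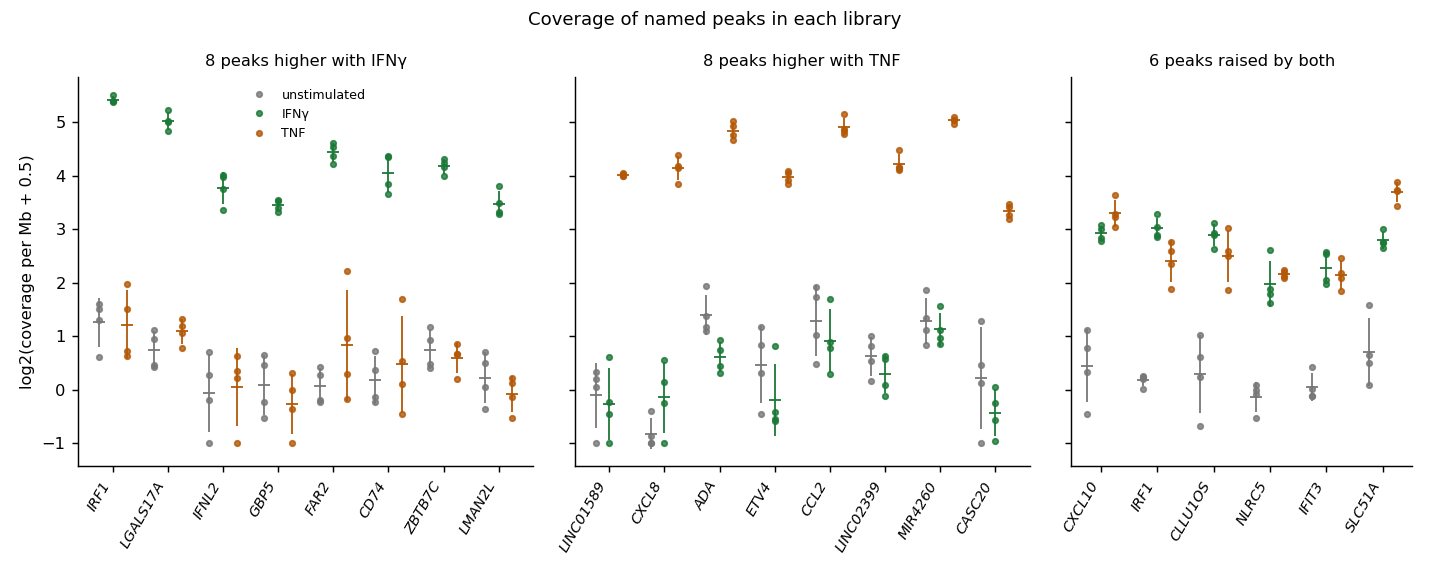
Coverage of named peaks, as log2(coverage per Mb + 0.5), in each library (points) with the mean and SD of each group of 4 (bars), for the 8 peaks highest with IFNγ, the 8 highest with TNF and 6 raised by both. In the left and middle panels the cytokine that did not raise a peak lies near unstimulated cells, and the right panel shows both cytokines above unstimulated cells, as at CXCL10 (7.15 with IFNγ, 9.45 with TNF and 0.974 unstimulated).

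A small set of peaks moved in opposite directions under the cytokines. The 4 largest of these on each side were chosen for having passed all 3 tests, so their directions are a description. An intron of RMC1 and NPC1 (chr18:23512670-23513170) read 17.7, 17.0, 18.3 and 16.8 with IFNγ, 2.56, 0, 2.39 and 2.93 with TNF, and 2.56, 4.34, 2.40 and 3.18 unstimulated. The level with IFNγ was above all others, while only 1 TNF library, at 0, lay clearly below the unstimulated range. A peak named WDR25 in an intron of WARS1, an IFNγ-inducible tryptophanyl-tRNA synthetase, averaged 10.9 ± 1.44, 0.885 ± 0.727 and 2.12 ± 0.680 in the same order. Peaks named MAP3K9 and NAGS made up the 4, with TNF 1.16 and 1.39 below unstimulated cells on the log2 scale.

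In the other direction, an intron of PAPSS2, which encodes an enzyme that makes the sulfate donor for matrix glycans, read 14.1, 11.0, 10.7 and 13.9 with TNF. It read 1.28, 2.33, 1.35 and 1.13 with IFNγ and 4.59, 3.18, 4.49 and 2.04 in unstimulated cells. IFNγ thus lay below and TNF above the unstimulated mean (log2 differences of -0.99 ± 0.29 and 1.71 ± 0.29, limma, adjusted p = 0.0392 and 1.36e-06). The other 3, named ZFPM2, LINC02551 and SNORD1A, had IFNγ at 0.75 to 1.13 below unstimulated cells on the log2 scale. The PAPSS2 peak holds AP-1 letters in the stretch at chr10:87670813-87670932.
PAPSS2: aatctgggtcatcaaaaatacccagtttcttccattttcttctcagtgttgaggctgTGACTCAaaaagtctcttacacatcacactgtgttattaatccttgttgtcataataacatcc

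Peaks raised by both cytokines that did not differ between them were led by the promoter of CXCL10, a chemokine that attracts T cells. It read 6.68, 7.53, 6.41 and 7.97 with IFNγ and 7.72, 8.83, 12.0 and 9.19 with TNF, against 0.228 to 1.68 in unstimulated cells. The log2 difference was -0.37 with a 95% interval of -0.99 to 0.25 (limma, adjusted p = 0.683). An IRF1 intron (chr5:132475297-132475797) read 6.70 to 9.23 with IFNγ and 3.21 to 6.30 with TNF, a log2 difference of 0.62 (95% interval -0.03 to 1.26). Peaks named CLLU1OS, NLRC5 and IFIT3 had intervals within -0.96 to 1.08, and SLC51A just missed the threshold at -0.90 (limma, adjusted p = 0.0559).

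Motif letters were counted in the peaks on each side as a description. ISRE letters were in 35.8% of peaks higher with IFNγ and 14.9% of those higher with TNF, against 18.7% of all tested peaks. Within the IFNγ side the share was 58.7% in peaks that IFNγ had raised and 19.0% in peaks that TNF had lowered, the latter close to all peaks. GAS letters stood at 22.1% and 16.5% on the sides against 17.2% of all.

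NF-κB letters were in 14.2% of peaks higher with TNF, in 18.2% of those that TNF had raised and in 5.69% of peaks higher with IFNγ, against 7.30% of all. AP-1 letters were in 57.6% of peaks higher with TNF and 22.7% of those higher with IFNγ, against 25.7% of all. TEAD letters (ACATTCC) were in 14.3% of the IFNγ-side peaks that TNF had lowered, against 8.63% of all tested peaks. The GC content of the sides was alike, at 44.8% and 44.9%, against 46.7% over all tested peaks.

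The matches also lay nearer the centre of the peak on the side they marked. The median distance of the ISRE match nearest the centre was 75.5 bases in peaks higher with IFNγ, 134.5 bases in those higher with TNF and 114.5 bases in all tested peaks. For NF-κB it was 55.5 bases in peaks higher with TNF and 117.5 bases in those higher with IFNγ. For AP-1 the medians were 30.5 and 56.5 bases.

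The shares changed with the size of the difference. ISRE letters rose from 24.5% of the smallest IFNγ-side differences to 64.1% of the 64 peaks at 3 or more. NF-κB letters rose on the TNF side from 9.37% of the smallest differences to 30.1% between -3 and -2, and AP-1 letters went the other way, from 63.1% of the smallest to 31.9% of the 72 largest.

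**Figure D3:**
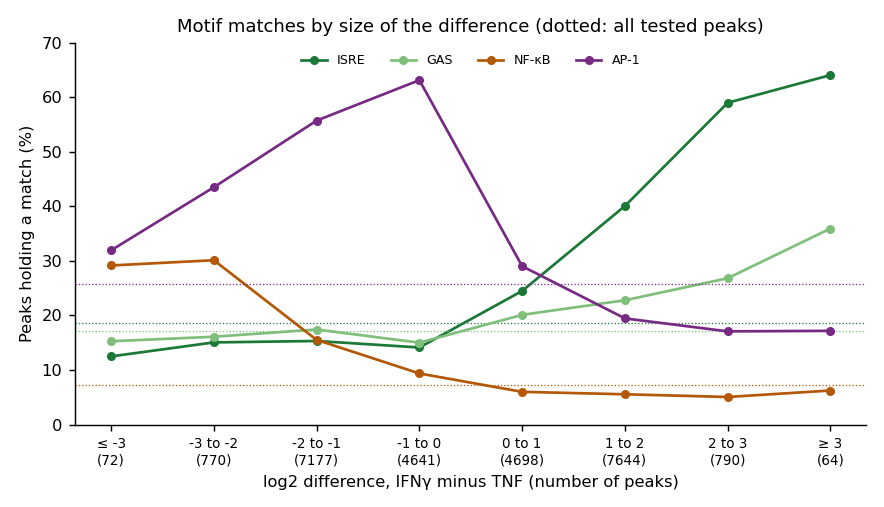
Percentage of peaks holding ISRE, GAS, NF-κB or AP-1 letters (vertical axis) among peaks that differed, by log2 difference, IFNγ minus TNF (horizontal axis, number of peaks in brackets), with dotted lines for all tested peaks. ISRE matches reach 64.1% at the IFNγ end, while towards the TNF end NF-κB matches rise to about 30.1% as AP-1 matches fall from 63.1% to 31.9%.

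The same letters were then weighed by coverage in each library, with no selection of peaks. ISRE-holding peaks took 17.1, 17.1, 17.1 and 17.0% of the coverage in IFNγ replicates 1 to 4 and 15.5, 15.6, 15.4 and 15.4% in TNF replicates 1 to 4, with 15.4 ± 0.0468% in unstimulated cells (SD, n = 4). AP-1-holding peaks took 33.3, 33.3, 32.5 and 33.1% with TNF and 29.5, 29.7, 29.3 and 29.8% with IFNγ, with 29.8 ± 0.0664% unstimulated. NF-κB-holding peaks took 7.70 ± 0.0452% with TNF, 6.97 ± 0.0232% with IFNγ and 6.95 ± 0.0195% unstimulated. ISRE-holding peaks thus stood above the unstimulated share in all IFNγ libraries, and AP-1-holding and NF-κB-holding peaks in all TNF libraries.

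The GAS share was 15.3 ± 0.0331% with IFNγ and 14.9 ± 0.0932% with TNF, the C/EBP share (TTGCGCAA) 0.199 ± 0.00145% and 0.182 ± 0.00263%, and the RUNX share (TGTGGTT) 10.5 ± 0.0505% and 10.7 ± 0.0706%. In unstimulated cells these shares were 15.0 ± 0.0562%, 0.187 ± 0.00328% and 10.3 ± 0.00486%. For RUNX, every IFNγ and every TNF library lay above every unstimulated one. The IFNγ and TNF groups did not overlap for these 6 motifs. Each gave p = 0.0286 in a two-sided exact permutation test, the smallest that 4 against 4 can give, or 0.0381 after adjustment over 8 motifs. TEAD (9.17 ± 0.0756% and 9.02 ± 0.145%, exact permutation p = 0.114) and CTCF (CCANNAGGG, 10.6 ± 0.0438% and 10.7 ± 0.0414%, exact permutation p = 0.0857) did not pass.

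By the deposited classes, 3.71% of peaks higher with TNF and 5.89% of peaks higher with IFNγ were at promoters, with 7.15% of all tested peaks in that class. Their median distance from a start site was 13370 bases, against 10879.5 bases on the IFNγ side and 10734 bases overall. Promoter-class peaks took 20.3 ± 0.115% of coverage with IFNγ, 19.6 ± 0.266% with TNF and 20.3 ± 0.225% in unstimulated cells. Distal peaks took 26.9 ± 0.139%, 27.3 ± 0.201% and 26.7 ± 0.221% in the same order. IFNγ and TNF did not overlap in either share (two-sided exact permutation p = 0.0286 for each of 4 classes, and the same after adjustment).

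Genes were next read by their promoter peak, the tested peak nearest a GENCODE start site within 1 kb, for 14 lists of 200 genes. Of these, 194 had such a peak, and 63 were higher with IFNγ and 20 with TNF, against 6.35% of all tested peaks and 4.28% of promoter-class peaks called in either direction. Most of the 63 were in the 6 interferon lists, as the plot of the lists shows. Coverage over near-identical copies, as in HLA genes and paralogous chemokines or GBP genes, depends on how shared reads were placed and is less certain there.

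**Figure D4:**
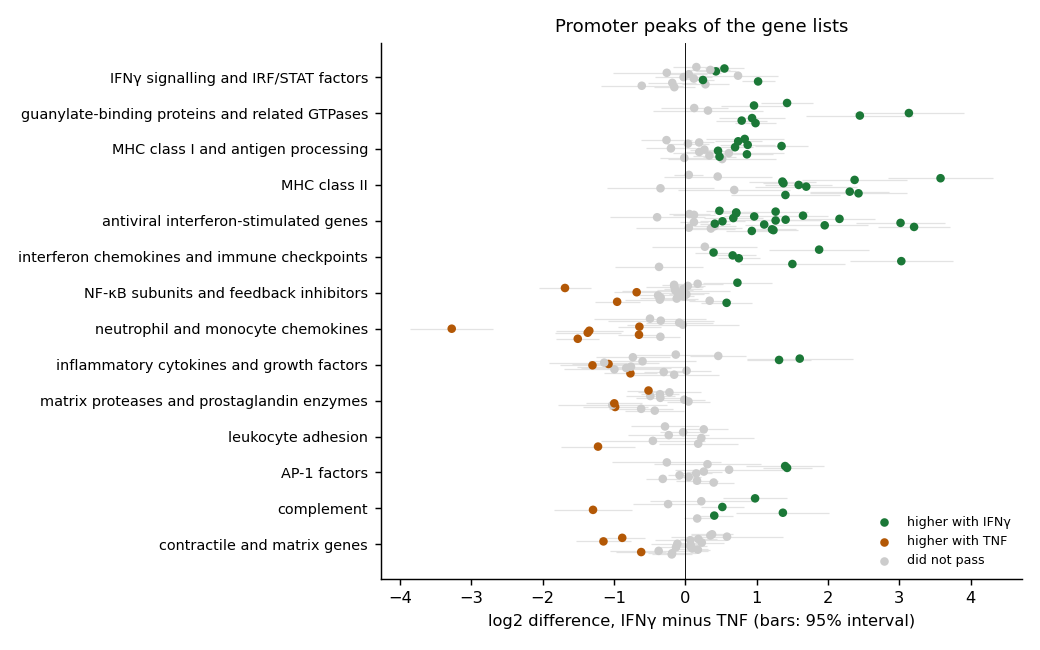
Log2 difference in promoter coverage, IFNγ minus TNF, with its 95% interval (horizontal axis) for each gene of 14 lists (rows), coloured by the direction of the difference where limma passed. The 6 upper lists hold no promoter higher with TNF, and the chemokine list holds 6 of 11, led by CXCL8 at -3.27.

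In the list of IFNγ signalling, 4 of 15 promoters were higher with IFNγ and 0 with TNF, a count that fell to 2 with loess offsets, with a GC correction and without IFNγ replicate 1, 3 or 4 or TNF replicate 1 or 3. SOCS3, a feedback inhibitor, read 19.7 to 24.2 with IFNγ and 13.2 to 15.9 with TNF, a log2 difference of 0.55 ± 0.14 (limma, adjusted p = 0.00276). The calls for IRF9 (0.43, limma, adjusted p = 0.0490) and STAT2 (0.25, adjusted p = 0.0231), which act together in a complex that binds ISRE, were each lost when any of several libraries was left out (adjusted p up to 0.208 without IFNγ replicate 3 and 0.157 without TNF replicate 3).

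STAT3 (0.12, 95% interval -0.03 to 0.27) and IRF7 (0.05, -0.21 to 0.31) did not pass. Among genes named here after their values were seen, the receptor genes IFNGR1 (-0.15, 95% interval -0.44 to 0.13) and IFNGR2 (-0.61, -1.18 to -0.04) did not pass. The IRF1 peak nearest a start site did not pass either, at 7.26 with IFNγ and 7.54 with TNF (log2 difference -0.02, 95% interval -0.42 to 0.38). The adjoining peaks, at -0.717 and 0.682 kb from it along the reference, were both higher with IFNγ (1.75 and 0.53). That 1 peak thus does not stand for the whole start region of IRF1. Of the 76 peaks named for IRF1, 31 were higher with IFNγ and 3 with TNF.

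Of the guanylate-binding proteins and related GTPases, which restrict microbes inside cells, 7 of 9 promoters were higher with IFNγ. GBP5 read 8.74, 7.22, 11.7 and 7.03 with IFNγ and 0.446, 0.204, 0.866 and 0.711 with TNF, a 15.6-fold ratio (log2 difference 3.14 ± 0.39, limma, adjusted p = 1.35e-11). GBP4 (2.45 ± 0.38), MX2 (1.43 ± 0.19) and GBP1 (0.99 ± 0.15) followed in size. The exceptions by promoter peak, GBP6 (0.32, 95% interval -0.45 to 1.09) and IRGM (0.13, -0.34 to 0.60), had coverage under 5 there. Of all peaks named for them, 5 of 11 at GBP6 and 0 of 4 at IRGM were higher with IFNγ, and 0 with TNF.

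Of the MHC class I and antigen processing genes, 8 of 18 were higher with IFNγ. PSMB9, a subunit of the immunoproteasome, read 25.5, 26.3, 21.1 and 20.6 with IFNγ and 4.01, 11.4, 11.9 and 10.8 with TNF (log2 difference 1.35 ± 0.19, limma, adjusted p = 3.10e-09). Its partner PSMB10 (0.88 ± 0.19) and HLA-F (0.87 ± 0.19) also passed. ERAP2, a peptidase that trims peptides for class I, gave 0.83 ± 0.28 with an adjusted p of 0.0469 by limma, a call lost without any 1 of the 8 libraries (adjusted p 0.0502 to 0.186). The promoter peaks of the transporter subunit TAP2 (0.27, 95% interval 0.07 to 0.47) and of B2M, the class I light chain (0.20, -0.01 to 0.40), did not pass. Over all peaks named for them, however, 10 of 13 at B2M were higher with IFNγ and 0 with TNF, against 0 of 6 at TAP2 in either direction.

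MHC class II, which presents peptides to helper T cells, showed 9 of 13 promoters higher with IFNγ. Beside CD74, HLA-DRA read 11.7, 15.2, 9.78 and 11.0 with IFNγ and 3.23, 0.560, 2.74 and 1.60 with TNF (log2 difference 2.43 ± 0.34, limma, adjusted p = 3.02e-09). HLA-DOA (2.37 ± 0.38) and HLA-DRB1 (2.31 ± 0.28) were next. The peak nearest a start site of CIITA, the class II transactivator, named here after its values were seen, averaged 4.57 with IFNγ, 1.53 with TNF and 0.588 unstimulated (log2 difference 1.40, limma, adjusted p = 0.00878), a call lost without TNF replicate 4 (adjusted p = 0.114) and with a pseudocount of 0.1 (0.171). HLA-DQB1 did not pass between the cytokines (-0.35, 95% interval -1.10 to 0.40). Both had raised it from 0.568 unstimulated, to 2.62 with IFNγ and 3.46 with TNF. RFX5, a factor that binds class II promoters, had high coverage with both cytokines (40.3 and 39.0).

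Antiviral genes held the largest count, with 19 of 26 promoters higher with IFNγ. OAS2, an enzyme that senses double-stranded RNA, read 28.6, 30.2, 35.3 and 30.9 with IFNγ and 3.67, 2.08, 3.91 and 2.40 with TNF, a 10.4-fold ratio (log2 difference 3.21 ± 0.25, limma, adjusted p = 3.97e-25). BST2, which tethers budding virus, read 15.8 to 20.0 with IFNγ and 1.01 to 3.14 with TNF (3.02 ± 0.32). RSAD2 (2.16 ± 0.25) and OASL (1.96 ± 0.31) came next. IFI6 (0.12, 95% interval -0.07 to 0.32) and OAS3 (0.41, 0.12 to 0.71) did not pass. PARP9 and DTX3L share 1 promoter peak and count as 2 of the 19.

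Of the interferon chemokines and immune checkpoints, 6 of 8 promoters were higher with IFNγ. Over all 94 peaks named for these genes the sides were closer, with 15 higher with IFNγ (16.0%) and 10 with TNF (10.6%). IDO1, which degrades tryptophan, read 12.6, 10.3, 10.8 and 11.7 with IFNγ and 1.23, 0.842, 1.17 and 0.626 with TNF (log2 difference 3.03 ± 0.36, limma, adjusted p = 2.55e-12). CCL8 gave 1.88 ± 0.35 and CD274, which encodes the checkpoint ligand PD-L1, 0.75 ± 0.15. Of the peaks named for them, 2 of 23 for CCL8 and 2 of 8 for CD274 were higher with TNF, and 1 for each with IFNγ. CXCL11, a T cell chemokine, averaged 6.93 with IFNγ (limma, adjusted p = 0.00232), a call lost with a pseudocount of 0.1 (adjusted p = 0.0734). It had also been raised by TNF (2.48 with TNF, 0.709 unstimulated), with TNF replicate 3 at 5.24 and the others at 1.11 to 2.23.

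On the TNF side, the neutrophil and monocyte chemokines had 6 of 11 promoters higher with TNF and 0 with IFNγ. The CXCL8 promoter read 29.9, 26.4, 17.7 and 21.2 with TNF and 1.67, 2.45, 2.61 and 1.37 with IFNγ, an 11.8-fold ratio (log2 difference -3.27 ± 0.30, limma, adjusted p = 3.48e-20). CXCL1 read 32.2 to 35.4 with TNF and 9.74 to 12.7 with IFNγ (-1.51 ± 0.15), a level that in unstimulated cells was 11.7 ± 0.264. CXCL5 (-1.37 ± 0.23) and CXCL6 (-1.34 ± 0.24), which also bind the neutrophil receptor CXCR2, gave nearly the same difference. CXCL2 (-0.35, 95% interval -0.63 to -0.07) and CCL7 (-0.08, -0.55 to 0.38) did not pass.

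The NF-κB list was divided, with 3 of 20 promoters higher with TNF and 2 with IFNγ, while 64 of the 634 peaks named for these genes were higher with TNF (10.1%) and 18 with IFNγ (2.84%). BIRC3, an inhibitor of cell death, read 29.8, 27.9, 27.4 and 26.5 with TNF and 6.04, 10.4, 7.73 and 9.87 with IFNγ (log2 difference -1.68 ± 0.19, limma, adjusted p = 3.20e-14). NFKB2 (-0.95 ± 0.16) and TNFAIP3, which encodes the feedback inhibitor A20 (-0.68 ± 0.16), followed. NFKB1 (0.58, limma, adjusted p = 0.0320) and the receptor gene TNFRSF1B (0.73, adjusted p = 0.0487) were higher with IFNγ. Both calls were lost with a GC correction, and both without IFNγ replicate 1 or 2 or TNF replicate 1 or 2 (adjusted p 0.0713 to 0.383 for NFKB1, and 0.0747 to 0.130 for TNFRSF1B, whose call was also lost without IFNγ replicate 3 or 4 or TNF replicate 3). NFKBIB read 63.8 and 64.7 (log2 difference -0.02, 95% interval -0.17 to 0.13).

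Inflammatory cytokines were divided as well, with 3 of 16 promoters higher with TNF and 2 with IFNγ, and the TNF count was 3 to 7 under the alternatives. IL1B read 9.79, 11.3, 12.1 and 11.9 with TNF and 6.42, 3.60, 3.78 and 3.73 with IFNγ (log2 difference -1.30 ± 0.23, limma, adjusted p = 3.61e-06). IL32 (-1.07 ± 0.26) and LIF (-0.77 ± 0.19) were also higher with TNF, IL32 after a rise with both cytokines from 2.29 unstimulated to 6.46 and 14.0. TNFSF10, which encodes the death ligand TRAIL (1.61 ± 0.38), and TNFSF13B, which encodes the B cell factor BAFF (1.32 ± 0.23), were higher with IFNγ. IL11 (-0.30, 95% interval -0.58 to -0.02) and CSF1 (0.02, -0.33 to 0.37) did not pass.

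Of the matrix proteases and prostaglandin enzymes, 3 of 12 were higher with TNF. MMP10 read 9.83 to 11.7 with TNF and 4.85 to 5.78 with IFNγ (log2 difference -0.99 ± 0.20, limma, adjusted p = 6.07e-05), and MMP3, another stromelysin, was alike (-0.98 ± 0.23). ADAMTS4, an aggrecan-cutting protease, gave -0.51 ± 0.15 (limma, adjusted p = 0.0186), a call lost without IFNγ replicate 1 or 4 or TNF replicate 2 or 3 (adjusted p 0.0718 to 0.126). PTGES (-0.35, 95% interval -0.62 to -0.08) and MMP14 (0.05, -0.25 to 0.35) did not pass. ICAM1, the integrin ligand on which leukocytes arrest, was the 1 of 8 adhesion genes that differed, with 16.3, 17.8, 18.3 and 16.6 under TNF, 8.63, 7.24, 7.99 and 5.05 under IFNγ and 3.48 ± 1.18 unstimulated (log2 difference -1.22 ± 0.26, limma, adjusted p = 0.000291). CD44 (-0.03, 95% interval -0.35 to 0.29) and ITGA5 (0.26, -0.08 to 0.60) did not pass.

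Of the AP-1 factors, 2 of 12 promoters were higher with IFNγ and 0 with TNF, against 3.24% and 3.11% of all tested peaks. Over all 236 peaks named for these genes, 29 were higher with IFNγ (12.3%) and 6 with TNF (2.54%). BATF2 read 22.5 to 25.6 with IFNγ and 7.53 to 9.38 with TNF (log2 difference 1.43 ± 0.17, limma, adjusted p = 5.00e-12), and BATF3 4.30 to 8.38 against 1.79 to 2.34 (1.40 ± 0.28). Both encode small AP-1 family proteins, BATF2 being interferon-induced. JUN (-0.08, 95% interval -0.24 to 0.08) and FOSL2 (0.05, -0.13 to 0.23) had high coverage with both cytokines. FOSL1, named here after its values were seen, missed the threshold (-0.31, 95% interval -0.55 to -0.08, limma, adjusted p = 0.108) but passed in 5 alternatives, and 3 of its 9 named peaks were higher with TNF.

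Complement genes showed 4 of 8 promoters higher with IFNγ and 1 with TNF. C2 (1.37 ± 0.33), a part of the classical pathway, and SERPING1 (0.98 ± 0.23), which encodes its C1 inhibitor, were higher with IFNγ. The peak read for C2 is named CFB in the deposited table, and of the 2 peaks named C2, 0 were called. CFB (0.52, limma, adjusted p = 0.0181) and C1R (0.41, adjusted p = 0.0366) lost their calls without several libraries, CFB with an adjusted p up to 0.0760 without IFNγ replicate 4 and C1R up to 0.394 without IFNγ replicate 3. C3, the central component, was the exception with 4.71, 9.60, 5.70 and 9.32 under TNF and 1.76, 3.82, 1.46 and 4.15 under IFNγ (log2 difference -1.29 ± 0.28, limma, adjusted p = 0.000217). C1S (0.17, 95% interval -0.02 to 0.36) did not pass.

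Of the contractile and matrix genes, 3 of 18 were higher with TNF. COL7A1, which encodes anchoring-fibril collagen, read 12.0, 14.2, 13.9 and 14.0 with TNF and 6.52, 6.13, 4.18 and 6.84 with IFNγ (log2 difference -1.15 ± 0.20, limma, adjusted p = 1.69e-06). TNC, which encodes tenascin C, read 16.8 to 19.4 and 8.33 to 10.9 (-0.88 ± 0.16, adjusted p = 1.14e-05 by limma), with unstimulated cells between them at 13.3 ± 2.77. CNN1, calponin of contractile cells, gave -0.62 ± 0.18 (limma, adjusted p = 0.0126), a call lost without IFNγ replicate 4 (0.161) or TNF replicate 3 (0.0977). MYLK (0.18, 95% interval 0.00 to 0.35) and COL1A2 (0.08, -0.11 to 0.27) did not pass.

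Among the fibroblast markers, the growth factor receptor genes PDGFRA (17.4 with IFNγ, 8.86 with TNF, 12.6 unstimulated) and PDGFRB (18.9, 11.9 and 16.1) were higher with IFNγ (log2 differences 0.93 and 0.65, limma, adjusted p = 8.24e-06 and 0.000382). The proteoglycan genes DCN (3.63, 7.36 and 4.57) and LUM (4.99, 11.3 and 5.43) were higher with TNF (-1.04 and -1.11, limma, adjusted p = 0.000964 and 6.08e-05). The other 8 fibroblast markers did not pass.

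Counting all peaks that the deposited table names for a gene, the loci with most peaks higher with IFNγ were THBS1 and IRF1. At THBS1, which encodes thrombospondin 1, 38 of 132 peaks were higher with IFNγ. Over all 132 peaks of the locus, 24 were lowered by TNF and 4 raised by IFNγ. At IRF1, in contrast, 33 of 76 peaks were raised by IFNγ and 0 lowered by TNF, and the median log2 difference of the 31 that were higher with IFNγ was 2.15. WDR25 beside WARS1 (16 of 16), GBP5 (15 of 20), ZFP36L1 (18 of 309), SLC25A47 (14 of 26) and DEPP1 (13 of 21) were also among the loci with most such peaks. ZFP36L1 was mixed, with 10 other peaks higher with TNF. Over its 309 peaks, TNF raised 9 and lowered 13, and IFNγ raised 5 and lowered 1.

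On the TNF side, 21 of 44 peaks named CXCL8 and 15 of 30 named CCL2 were higher with TNF, with 20 and 15 raised by TNF. LOC100130476, which lies beside TNFAIP3, had 20 of 68, TNC 18 of 72, and NFKBIA, the NF-κB inhibitor gene, 16 of 77, though the NFKBIA promoter peak, named here after its values were seen, did not pass (-0.34). PDGFC (16 of 87), LINC02541 (16 of 143) and BMPER (14 of 169) completed the 8. These counts may be read against 3.24% and 3.11% of all tested peaks called on each side, and neighbouring peaks of a locus are not independent.

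**Figure D5:**
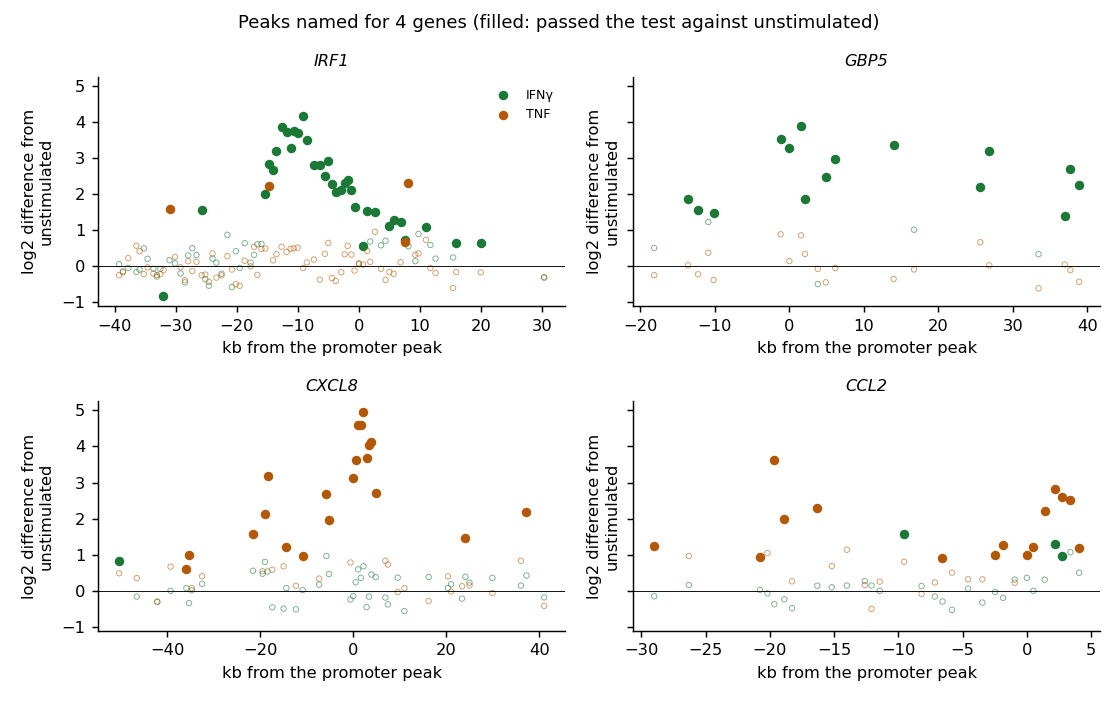
Log2 difference from unstimulated cells (vertical axis) for IFNγ (green) and TNF (orange) at each peak named IRF1, GBP5, CXCL8 or CCL2, by distance in kb from the gene's promoter peak along the reference (horizontal axis), filled where limma passed. At IRF1 and GBP5, IFNγ passed at 34 of 76 and 15 of 20 peaks and TNF at 4 and 0, and at CXCL8 and CCL2 TNF passed at 20 of 44 and 15 of 30 peaks and IFNγ at 1 and 3.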

How the data were processed

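Bulk ATAC-seq of Ccd18-Co fibroblasts was deposited as 1 table of read coverage over 407383 peaks of 500 bases in 44 libraries. The authors processed reads with the ENCODE ATAC-seq pipeline on hg38 with MACS2, and the deposited coverage is a signal summed per peak, with no scaling between libraries. How the table's peaks were chosen is not given in the sources used here. Groups were taken from the sample titles, 4 libraries each.

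Each library was scaled by its summed coverage and by a composition factor from trimmed means (0.979 to 1.01), values were put per Mb and tested as log2(value + 0.5) with limma 3.58.1 in R 4.3.3 (lmFit and eBayes with a trend, group as the only term, all 44 libraries sharing 1 estimate of spread). Fold changes on this scale understate those of low peaks. Peaks with a log2 mean coverage of -3 or less (209) were left out. P-values were adjusted by Benjamini-Hochberg over the 407174 tested peaks, with a threshold of 0.05. Intervals are 95% and the floor of a peak at 0 is 3 reads of 75 bases, both unadjusted for duplicate fragments. Errors are SD for levels and SE for log2 differences. Coverage shares of motif and class sets were compared by two-sided exact permutation tests.

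Named peaks were the 8 with the largest difference on each side with a mean of at least 1 per Mb over the 8 libraries and no overlap between groups, at most 1 per named gene, the 4 largest per side opposed against unstimulated cells, and the 6 raised by both with the largest smaller change. The 8 gene names with most peaks called on each side were named as loci. In each list, up to 4 genes per direction with the largest differences that passed and the 2 of highest coverage that did not were named. Members and lists were chosen with earlier results of these data known. Start sites and gene parts came from GENCODE v44, and gene names and classes of peaks from the deposited table. The fit was tested on simulated data. Alternatives were other scalings, pseudocounts, filters, library sets and weights, a replicate block, a GC correction and leaving out each library. Some results for individual genes are not reported here.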

Additional observations from a re-analysis of the deposited data

Results flagged for a closer look

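Of 135 groups of 4 libraries examined, 8 (5.93%) held a library whose gap to its nearest neighbour was past Dixon's 95% limit, and chance gives about 1 in 20. In depth, IFNγ replicate 2 stood above its group at a total of 658 Mb, and TNF replicate 4 above its own at 727 Mb. TNF replicate 4 also had the fewest peaks without coverage among the TNF libraries (3.37%). TNF replicate 3 had the lowest share of coverage in the top 1% of peaks within its group (13.7%). The ETV4 peak read 1.27 in IFNγ replicate 4, above the other IFNγ libraries and far below every TNF library. The LINC02399 peak read 21.9 in TNF replicate 2, above the other TNF libraries. The share of coverage in peaks with NF-κB letters was higher in IFNγ replicate 1 (7.003%) than in the other IFNγ libraries, though below every TNF library. The share in distal peaks was higher in unstimulated replicate 4 (27.1%) than in the other unstimulated libraries.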

How the results depend on the processing

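No peak called between the cytokines was called in the opposite direction under any alternative, 77.4 to 100% of the calls were kept in direction, and the share of calls higher with IFNγ was 46.7 to 52.1%. The total of 25856 calls was 21440 with a pseudocount of 0.1, 25053 with a GC correction, 32474 with the 8 libraries alone and 32787 with array quality weights, and 28064 without IL6 library 4, an alternative chosen after seeing the data. Peaks lowered by IFNγ numbered 1705 with 12 libraries and 1734 with array quality weights. Requiring a log2 size of at least 1 left 16517 peaks between the cytokines (8498 and 8019), 4755 for IFNγ against unstimulated cells (430 lowered) and 10410 for TNF (6894 raised and 3516 lowered). The CTCF share difference passed when matches were kept within 100 bases of the centre (-0.0746 percentage points, exact permutation, adjusted p = 0.0327). In deviations from the group means, same-numbered IFNγ and TNF libraries correlated at 0.002 to 0.009 and other-numbered ones at -0.0096 to 0.0027. All of these are weak, and with replicate spread near sampling noise they cannot settle whether the numbers pair libraries. A replicate block gave 26068 calls, or 25301 with a GC correction. Leaving out 1 library gave 20993 to 25969 calls, 10724 to 13242 higher with IFNγ and 10252 to 12727 higher with TNF. Against unstimulated cells it gave 5364 to 7179 for IFNγ (4630 to 6054 raised and 680 to 1125 lowered, lowest without unstimulated replicate 3) and 13824 to 17732 for TNF (8465 to 10867 raised and 5254 to 6865 lowered). The differences in coverage share then ran, in percentage points, from -0.491 to -0.361 for distal, 0.150 to 0.222 for exonic, -0.455 to -0.326 for intronic and 0.543 to 0.735 for promoter peaks. For motifs they ran from -3.66 to -3.38 (AP-1), 0.0163 to 0.0183 (C/EBP), -0.0873 to -0.0546 (CTCF), 0.457 to 0.529 (GAS), 1.58 to 1.64 (ISRE), -0.741 to -0.708 (NF-κB), -0.234 to -0.178 (RUNX) and 0.112 to 0.220 (TEAD). With 3 against 4 libraries the smallest exact p is 0.0571, so those shares could not pass. Of 83 list genes called, 14 lost the call in at least 1 of 27 alternatives and 0 changed sign, and of 111 not called, 20 gained one. Named peaks kept their side of the threshold in 799 checks, and in the other 11 a call was gained by SLC51A and the IRF1 intron. The cause of these changes was not tested. Low peaks limit precision, since replicate spread lay near sampling noise.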
